A study of Mus musculus with 30 samples.

Results

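The genes described here are 10 genes of glutathione metabolism and antioxidant defense, taken by name from the 54532 genes counted: *Gclc*, *Gclm*, *Gss*, *Gsr*, *Nqo1*, *Txnrd1*, *Srxn1*, *Gpx1*, *Gpx4* and *Prdx2*. They are taken by symbol, in a list drawn up with earlier results of these data known, and all 10 passed the filter on low counts in each of the 9 comparisons. Murine erythroleukemia (MEL) cells are a mouse line of erythroid precursors that turn on the red cell program when grown in DMSO. RNA depleted of ribosomal and globin transcripts was sequenced from WT MEL cells and from Abcb10-null MEL cells, which lack a mitochondrial inner membrane transporter, to ask what the loss of this transporter does to transcript levels during differentiation. Each genotype was taken at day 0 without DMSO and at days 2 and 5 in 1.5% DMSO, with 5 libraries for each genotype and day and 30 in all, all from the same parent line. The Abcb10-null cells were a single clone made by CRISPR/Cas9, so genotype and clone cannot be told apart.

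Library totals ran from 9906783 to 20157768 counts. Levels are in CPM, edgeR's counts scaled to library size, after TMM normalization of all 30 libraries. The targeted gene *Abcb10* was lower in all 5 Abcb10-null libraries than in all 5 WT libraries of the same day, with means of 74.3 against 119 CPM at day 0, 202 against 567 CPM at day 2 and 212 against 1223 CPM at day 5. None of the 10 erythroid markers checked was at or under 3 counts in every library of any group. Their summed level ran from 2718 to 2948 CPM in WT libraries and from 2794 to 3135 CPM in Abcb10-null libraries at day 0, from 4152 to 5686 and from 2817 to 4013 CPM at day 2, and from 11949.5 to 23946 and from 6143 to 7857 CPM at day 5. WT day 5 replicate 5 gave the value of 11949.5 CPM, and the other 4 WT libraries of that day had at least 20779.8 CPM. WT day 5 replicate 2 had the lowest median correlation with the other libraries of its group among all 30 libraries (Pearson r = 0.968). The 6 myeloid markers summed to between 25.9 and 137 CPM over the 30 libraries and the 5 lymphoid markers to at most 4.88 CPM. The 5 mast cell markers summed to between 3.39 and 6.51 CPM in Abcb10-null day 0 libraries and to at most 1.87 CPM in all others. WT day 2 replicates 1 and 2 stood apart from the other 3 of their group, and Abcb10-null day 2 replicates 2 and 5 from theirs, so the day 2 comparison was also made without each pair. These are bulk samples, in which fewer cells of a kind and less RNA per cell cannot be told apart.

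Glutathione is a tripeptide that holds cell thiols in a reduced state. Glutamate-cysteine ligase, made of a catalytic subunit (*Gclc*) and a modifier subunit (*Gclm*), carries out the limiting step of its synthesis, and glutathione synthetase (*Gss*) adds glycine. Glutathione reductase (*Gsr*) returns oxidized glutathione to the reduced form with electrons from NADPH. Hydrogen peroxide and lipid peroxides are removed by the selenium-containing glutathione peroxidases (*Gpx1*, *Gpx4*) and by peroxiredoxins (*Prdx2*), and the latter are kept active by thioredoxin reductase (*Txnrd1*) and sulfiredoxin (*Srxn1*). *Nqo1* encodes a quinone reductase and is a widely used marker of the transcription factor NRF2, which binds antioxidant response elements together with small MAF proteins, while BACH1, a heme-binding repressor, can bind the same elements. Peroxiredoxin 2 is among the most abundant proteins of the red cell after hemoglobin, and *Gpx1* and *Gpx4* are also turned on as erythroid cells mature.

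The sequences near transcription starts are shown because several of these genes are textbook targets of NRF2. RefSeq start windows on GRCm38.p6, each from 250 bases before to 50 bases after a start, were held for 8 of the 10 genes (13 windows), with no entry for *Gclc* and *Gsr*. The core of the antioxidant response element, TGACNNNGC on either strand, was found in 12.4% of all 32851 windows and in windows of 3 of the 8 genes, *Srxn1*, *Gclm* and *Txnrd1* (1 of its starts). None of these 3 matches held an AP-1 motif. The 3 matches are printed with the core in capitals, read on the opposite strand to the gene in each case, at chr2:152105542-152105570 (-), chr3:122245413-122245441 (-) and chr10:82859104-82859132 (-).
Srxn1: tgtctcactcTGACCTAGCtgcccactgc
Gclm: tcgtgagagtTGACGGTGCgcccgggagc
Txnrd1: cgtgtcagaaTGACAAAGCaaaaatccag
The core of *Srxn1* began 28 bases after its start, that of *Gclm* 134 bases before and that of *Txnrd1* 92 bases before. The AP-1 motif, read as TGACTCA on either strand (TGAGTCA in reverse), was found in 1709 of all windows and in that of *Srxn1* alone among the 8 genes, at 2 places. The longer form ends in GC, with TGACTCAGC and also TGAGTCAGC searched, and holds the AP-1 motif within it. It fits NF-E2 and related factors with small MAF partners. This form was found in 0.822% of all windows (0.929% of genes) and again in that of *Srxn1*. The 120 bases from 130 to 11 bases before the start of *Srxn1*, chr2:152105394-152105513 (+), are printed with both AP-1 motifs in capitals, the second of them in its longer form.
Srxn1 upstream: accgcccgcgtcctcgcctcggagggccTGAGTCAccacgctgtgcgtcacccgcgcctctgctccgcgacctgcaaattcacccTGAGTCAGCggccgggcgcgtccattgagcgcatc
The GATA motif, AGATA or TGATA with A or G after it, on either strand, was in 29.8% of all windows and in those of *Gpx4* alone among the 8 genes, and TGATGNAA, a core form of the element bound by ATF4, was in 3.97% of all windows and in none of theirs. A match says only that the letters are present. Sequence beyond these windows was not searched, so a gene without a match may hold the motif further away. Of the genes with the lowest day 5 values relative to WT, *Nqo1* and *Prdx2* (log2 fold changes -2.05 and -1.09) had none of the motifs searched in these windows. *Srxn1*, at -1.08, had the antioxidant response element core, both AP-1 motifs and the longer form. *Gclm* and *Txnrd1*, which also held the core, were not called at day 5 (-0.31 and 0.06, edgeR adjusted p = 0.0702 and 0.755).

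Levels of the 10 genes were compared with each other per kilobase of exon, counting all annotated exon bases of a gene merged over its transcripts. A gene whose main transcript is shorter than that is set too low, and the order depends on these lengths. In WT cells at day 0 *Gpx1* was highest, with a mean of 593 CPM per kilobase, followed by *Prdx2* at 206, *Gpx4* at 119.5 and *Gsr* at 85.2. *Gclc* (31.2), *Srxn1* (19.8), *Gclm* (17.8), *Txnrd1* (15.6), *Nqo1* (13.98) and *Gss* (4.25) followed. The library ranges of *Srxn1* and *Gclm* overlapped, as did those of *Txnrd1* and *Nqo1*, and all other neighbors in this order were apart. At day 5 the first 3 places were the same in both genotypes. Before division by length (3050 bases for *Prdx2*, 1441 for *Gpx1*), *Prdx2* was above *Gpx1* in WT at day 5, with means of 2012 and 1587 CPM. The quinone reductase *Nqo1* then stood at 25.1 CPM per kilobase in WT and at 6.05 in Abcb10-null cells, next to last in the latter, where its range overlapped that of *Gss* (3.46). Together the 10 transcripts made up 2367 ± 134 CPM (SD, n = 5) in WT libraries and 2363 ± 71.2 CPM in those of the Abcb10-null clone at day 0, 2313 ± 97.7 and 2453 ± 343 CPM at day 2, and 4612 ± 449 and 3359 ± 100.004 CPM at day 5, a sum set mostly by *Gpx1* and *Prdx2*.

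**Figure D1:**
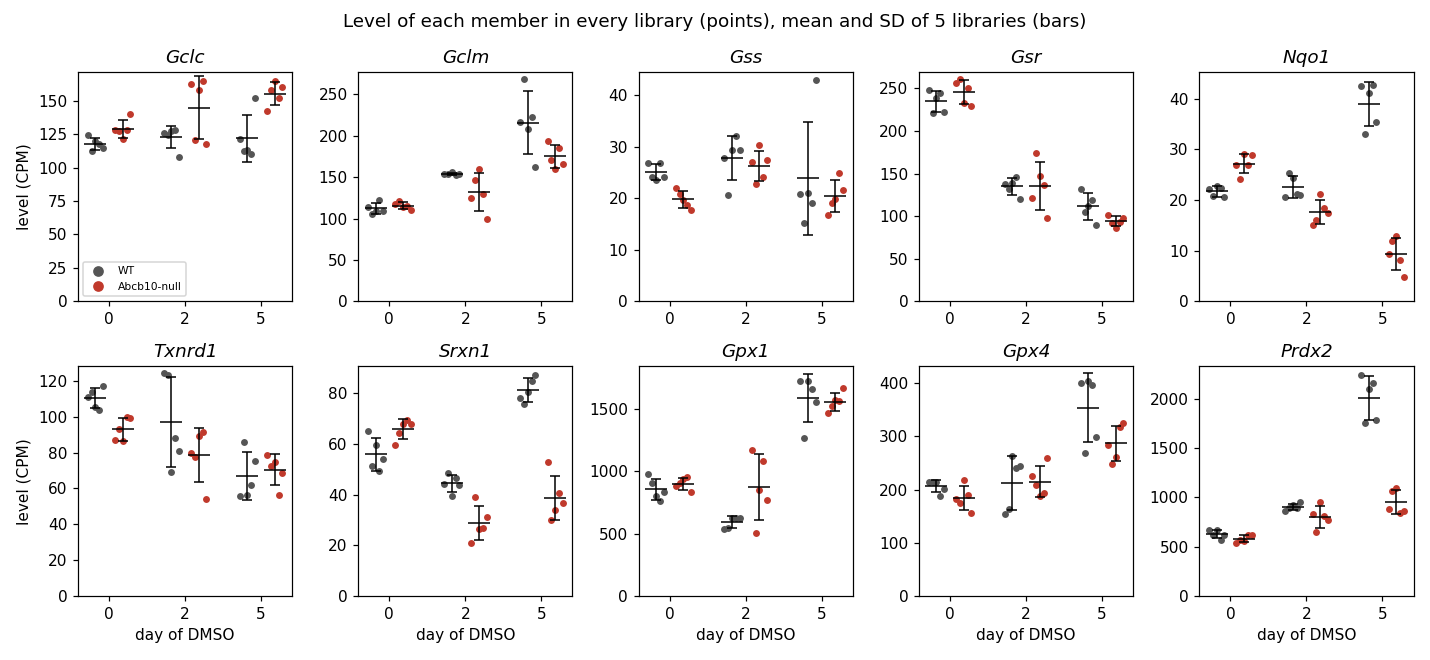
CPM of each gene (y axis, linear, from 0) in every library by day of DMSO (x axis, days 0, 2 and 5), WT in grey and Abcb10-null in red, with bars for the mean and SD of 5 libraries. At day 5 the *Nqo1*, *Srxn1* and *Prdx2* points of the 2 genotypes do not overlap, and Gss in WT replicate 5 stands at 43.1 CPM above the other 4.

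Before DMSO the Abcb10-null clone differed from WT in 4 of these genes, in both directions, and at day 5 it held *Nqo1*, *Srxn1* and *Prdx2* at 0.241, 0.473 and 0.470 of the WT level. At day 0, 4 of the 10 genes passed edgeR's quasi-likelihood test at an adjusted p under 0.05, against 36.0% of the 12912 genes tested, 2 of them higher (*Nqo1*, *Srxn1*) and 2 lower (*Gss*, *Txnrd1*), where 19.7% of all genes were called higher and 16.2% lower. At day 2 only *Nqo1* and *Srxn1* passed, both lower, against 31.8% of 13053 genes, with 16.9% of all lower. At day 5, 4 passed, *Gclc* higher and *Nqo1*, *Srxn1* and *Prdx2* lower, against 37.6% of 12676 genes, 19.8% higher and 17.8% lower. The share of the 10 genes called was thus near that of all genes at days 0 and 5 and below it at day 2. Fitting all 30 libraries together called none of the 10 at day 0, where it called 1584 of 14702 genes. Without WT day 2 replicates 1 and 2 none of the 10 was called at day 2, where 738 of 13508 genes were. The day 2 value of *Srxn1* was then -0.63 (edgeR adjusted p = 0.0669) and that of *Nqo1* -0.38 (edgeR adjusted p = 0.132). Without Abcb10-null day 2 replicates 2 and 5 the called genes were *Srxn1* (-0.90, edgeR adjusted p = 0.000407), *Gclc* and *Gpx1*, and *Nqo1* was not called (-0.36, edgeR adjusted p = 0.085). Over all genes that fit called 6397 of 13488. *Gclm*, *Gss*, *Gsr*, *Txnrd1*, *Gpx4* and *Prdx2* stayed without a call at day 2 whichever pair was left out.

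**Figure D2:**
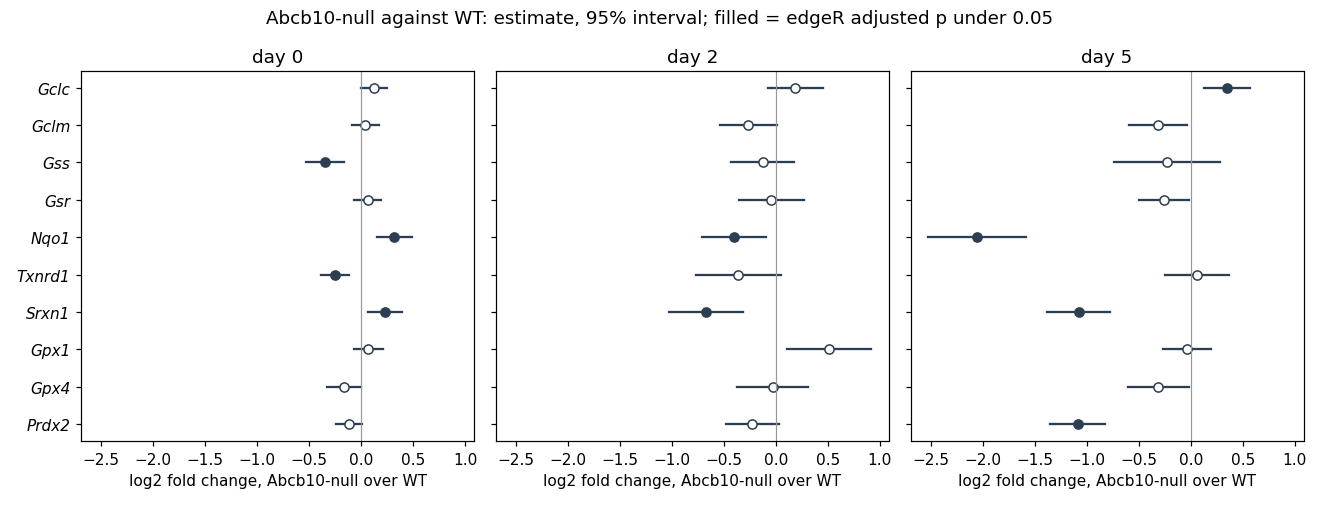
Log2 fold change of Abcb10-null over WT (x axis) for each gene (y axis) at days 0, 2 and 5, with its 95% interval, filled where the edgeR adjusted p was under 0.05. The estimates lie between -0.35 and 0.32 at day 0 and reach -2.05 for *Nqo1* at day 5.

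Of the genes of glutathione synthesis, *Gclc* was called higher at day 5 and *Gss* lower at day 0, and *Gclm* was called on no day. *Gclc* (chr9:77754535-77794485, + strand), the catalytic subunit, was measured at 121, 113, 113, 109.9 and 152 CPM in WT replicates 1 to 5 at day 5 and at 143, 158, 164, 152 and 159.8 CPM in Abcb10-null replicates. In 3 of 5 Abcb10-null libraries it lay above the highest WT library, replicate 5, and the other 2 lay below that library and above the other 4, so the groups overlapped. The log2 fold change of *Gclc* at day 5 was 0.34 (95% interval 0.12 to 0.57, edgeR adjusted p = 0.0183), and it passed the test in 6 of 10 fits with a single library removed. At day 0 its means were 118 ± 4.73 and 129 ± 6.92 CPM (SD, n = 5; edgeR adjusted p = 0.105), and at day 2 they were 123 ± 8.35 and 145 ± 23.5 CPM (edgeR adjusted p = 0.26). The Abcb10-null day 2 libraries split, with 163, 158 and 165 CPM in replicates 1, 3 and 4 and 121 and 117 CPM in replicates 2 and 5, and without the last 2 the log2 fold change was 0.35 (edgeR adjusted p = 0.0115), while without WT replicates 1 and 2 it was 0.21 (edgeR adjusted p = 0.354).

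*Gclm* (chr3:122245557-122270732, + strand), the modifier subunit, had its levels close together in WT at day 2, at 154, 154, 156, 153 and 153 CPM, and spread wider in Abcb10-null cells, at 125, 147, 160.4, 129 and 99.2 CPM. At day 5 WT had 217, 269, 208, 223 and 163 CPM and Abcb10-null 193, 170.3, 160.5, 186 and 165 CPM. Only WT replicate 5 fell within the Abcb10-null range at day 5. *Gclm* shares 3.88% of its exon bases with the pseudogene *Gm6061* on the same strand and 4.71% with *Gm17494* on the opposite strand. *Gm6061* held 0.281% as many counts as *Gclm*. For *Gclm* the log2 fold changes at days 0 and 2 were 0.04 and -0.27 (edgeR adjusted p = 0.651 and 0.122). At day 5 the value was -0.31 (95% interval -0.59 to -0.04, edgeR adjusted p = 0.0702), and without WT day 5 replicate 5 it was -0.41 (edgeR adjusted p = 0.00695). In that same fit *Gsr* and *Gpx4* also passed, giving 7 called genes at day 5 in place of 4. Over all genes that fit called 5594 of 13037, against 4769 of 12676 with all libraries of the day.

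The counts of the 2 ligase subunits were set against each other within each library, which removes the library scaling. The mean *Gclc* counts per *Gclm* count in WT at days 0, 2 and 5 were 1.05 ± 0.0568, 0.797 ± 0.0530 and 0.590 ± 0.200 (SD, n = 5). In Abcb10-null cells they were 1.12 ± 0.0870, 1.11 ± 0.203 and 0.895 ± 0.116. The ratio was higher on average in Abcb10-null than in WT libraries on each day. Between genotypes the mean log2 difference at day 0 was 0.08 (exact permutation test, two-sided, p = 0.246), 0.46 at day 2 (exact p = 0.0159) and 0.65 at day 5 (exact p = 0.0317), and the last 2 were both 0.0476 after Benjamini-Hochberg adjustment over these 3 tests. The smallest p that 5 libraries against 5 allow is 0.00794. At day 5, WT replicate 5 had 0.935, within the Abcb10-null range of 0.737 to 1.03, and the other 4 WT libraries lay between 0.419 and 0.559, and the difference was 0.83 (exact p = 0.00794) without replicate 5. In 4 of the 10 fits with 1 library removed the day 5 difference lost its call (exact p = 0.0556). The fits with 1 library removed were judged by the exact p without adjustment over the 3 tests.

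**Figure D3:**
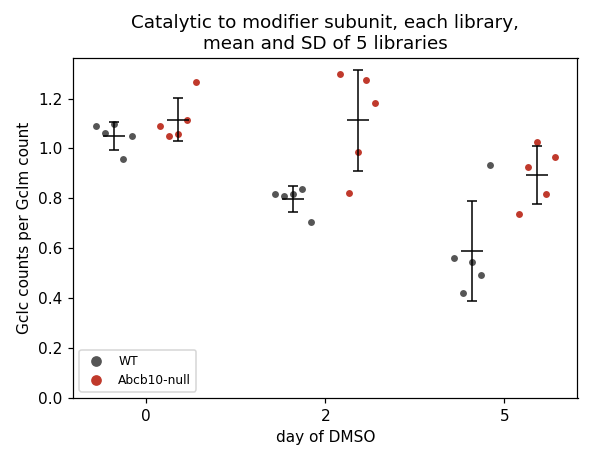
Gclc counts per Gclm count (y axis, linear, from 0) in every library by day of DMSO (x axis), WT in grey and Abcb10-null in red, with bars for the mean and SD of 5 libraries. The WT points fall from between 0.956 and 1.10 at day 0 to between 0.419 and 0.935 at day 5.

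*Gss* (chr2:155563181-155592810, - strand), glutathione synthetase, was lower before DMSO in the Abcb10-null clone, with 22.02, 20.9, 19.7, 18.7 and 17.8 CPM against 26.9, 24.2, 23.6, 26.9 and 24.2 CPM in WT. The groups did not overlap. The log2 fold change was -0.35 (SE 0.09, edgeR adjusted p = 0.00472), and at days 2 and 5 it was -0.13 and -0.23 (edgeR adjusted p = 0.515 and 0.469). At day 5 WT replicate 5 had 43.1 CPM against 15.3 to 21.2 CPM in the other 4 and 16.9 to 24.9 CPM in Abcb10-null libraries, and without it the value turned to 0.08 (edgeR adjusted p = 0.699). *Gss* shares from 5.44% to 6.68% of its exon bases with each of 3 genes of the opposite strand.

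*Gsr* (chr8:33652523-33698163, + strand), glutathione reductase, fell as both genotypes differentiated. WT libraries held 248, 221, 238, 244 and 222 CPM at day 0 and 132, 105, 112, 119 and 90.0 CPM at day 5. Abcb10-null libraries held 256, 261, 232, 250.2 and 229 CPM at day 0 and 101, 91.7, 86.5, 93.4 and 97.3 CPM at day 5. In neither genotype did the days overlap. From day 0 to day 5 the log2 fold change was -1.07 in WT (SE 0.10, edgeR adjusted p = 8.15e-07) and -1.38 in Abcb10-null cells (SE 0.07, edgeR adjusted p = 1.86e-10), and most of the fall was present at day 2, at -0.80 (edgeR adjusted p = 1.58e-06) and -0.83 (edgeR adjusted p = 0.000349). The genotypes did not differ beyond the threshold on any day, with log2 fold changes of 0.06, -0.05 and -0.26 at days 0, 2 and 5 (edgeR adjusted p = 0.463, 0.829 and 0.086).

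Of the 2 glutathione peroxidases, *Gpx1* (chr9:108338903-108340343, + strand) is the abundant cytosolic form. WT libraries held 536, 542, 628, 622 and 628 CPM at day 2 and Abcb10-null libraries 1169, 501, 849.7, 1078 and 769.9 CPM. In 4 of 5 Abcb10-null libraries *Gpx1* lay above every WT library, and in replicate 2 below them all. The log2 fold change of 0.51 at day 2 (95% interval 0.11 to 0.91) had an edgeR adjusted p of 0.0514, and without Abcb10-null replicates 2 and 5 it was 0.75 (edgeR adjusted p = 0.0006), while without WT replicates 1 and 2 it was 0.43 (edgeR adjusted p = 0.218). With no library removed, *Gpx1* was called at day 2 with DESeq2 (DESeq2 adjusted p = 0.0349). It was also called with all genes of at least 1 count (edgeR adjusted p = 0.0133) and in 1 fit of all 30 libraries (edgeR adjusted p = 0.0017). It was not called with DESeq2 size factors in edgeR, with at least 10 counts in every library or with the replicate block. At days 0 and 5 the genotypes were close, with 855 ± 84.9 and 901 ± 48.7 CPM (edgeR adjusted p = 0.451) and with 1587 ± 191 and 1557 ± 72.8 CPM (SD, n = 5; edgeR adjusted p = 0.821). The 95% interval of the day 5 log2 fold change was -0.27 to 0.20.

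*Gpx4* (chr10:80047166-80056439, + strand) encodes the peroxidase that reduces lipid peroxides in membranes. At day 5 it had 401, 268, 403, 396 and 299 CPM in WT and 283, 248, 260.5, 317 and 325 CPM in Abcb10-null libraries. WT replicates 2 and 5 lay within the Abcb10-null range and the other 3 above it. The log2 fold changes of *Gpx4* were -0.17, -0.03 and -0.31 at days 0, 2 and 5 (edgeR adjusted p = 0.097, 0.896 and 0.0893), and the last passed without WT day 5 replicate 5 (-0.38, edgeR adjusted p = 0.034) and without replicate 2 (-0.41, edgeR adjusted p = 0.0217). At day 2 the WT libraries split into 154 and 163 CPM in replicates 1 and 2 and 263, 241 and 244 CPM in the others. A near copy, *Gpx4-ps2*, held 1.31% as many counts as *Gpx4*.

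*Prdx2* (chr8:84969587-84974834, + strand), peroxiredoxin 2, rose in both genotypes and less in Abcb10-null cells. At day 0 the ranges overlapped, at 568 to 671 CPM in WT and 541 to 619.8 CPM in Abcb10-null libraries (log2 fold change -0.12, edgeR adjusted p = 0.125). At day 5 WT had 2247, 1759, 2102, 2165 and 1785 CPM and Abcb10-null 887, 1069.5, 1098, 846 and 859 CPM, with no overlap. Its log2 fold change at day 5 was -1.09 (95% interval -1.35 to -0.82, edgeR adjusted p = 3.94e-05), and it was called in each of the 10 fits with 1 library removed. At day 2 it was -0.23 (edgeR adjusted p = 0.159). *Prdx2* shares 5.67% of its exon bases with *Junb* and 5.8% with *Rnaseh2a*, both on the opposite strand, and the near copy *Tdpx-ps1* held 2.65% as many counts as *Prdx2*.

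*Srxn1* (chr2:152105516-152111376, + strand), sulfiredoxin, which restores overoxidized peroxiredoxins, was the one gene of the 10 besides *Nqo1* called on all 3 days. At day 0 it had 65.0, 51.2, 59.8, 49.3 and 54.2 CPM in WT and 59.5, 64.2, 68.0, 69.5 and 68.0 CPM in Abcb10-null libraries, which overlapped (log2 fold change 0.23, edgeR adjusted p = 0.0276, called in 5 of 10 fits with 1 library removed). At day 2 it had 44.2, 48.3, 39.6, 46.5 and 43.6 CPM against 20.7, 38.9, 26.5, 26.7 and 31.3 CPM. Every Abcb10-null library then lay below every WT library. The log2 fold change at day 2 was -0.67 (95% interval -1.03 to -0.32, edgeR adjusted p = 0.00987). At day 5 WT held 78.0, 75.9, 80.7, 84.8 and 87.3 CPM and Abcb10-null 52.7, 29.9, 33.8, 40.8 and 36.5 CPM, again without overlap (log2 fold change -1.08, 95% interval -1.38 to -0.78, edgeR adjusted p = 0.000105).

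*Txnrd1* (chr10:82833951-82897712, + strand), cytosolic thioredoxin reductase and a selenoprotein, was lower in Abcb10-null cells before DMSO, with 87.0, 93.0, 86.3, 99.98 and 99.0 CPM against 111, 114, 105, 104 and 117 CPM. The groups did not overlap, and the log2 fold change was -0.25 (SE 0.06, edgeR adjusted p = 0.00467). At day 5 the levels were 67.0 ± 13.2 and 70.4 ± 8.54 CPM (SD, n = 5) and the log2 fold change 0.06 (95% interval -0.24 to 0.37, edgeR adjusted p = 0.755). At day 2 WT replicates 1 and 2 had 125 and 123 CPM and replicates 3 to 5 had 68.9, 88.1 and 81.0 CPM, and the log2 fold change of -0.36 (edgeR adjusted p = 0.164) shrank to -0.06 without the first 2.

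*Nqo1* (chr8:107388225-107403206, - strand), the quinone reductase, had the largest difference of the 10 at day 5. Before DMSO it was higher in the Abcb10-null clone, with 26.9, 24.2, 29.2, 26.97 and 28.8 CPM against 22.1, 20.7, 22.8, 22.4 and 20.5 CPM, and the groups did not overlap (log2 fold change 0.32, SE 0.08, edgeR adjusted p = 0.00458). At day 2 it had 20.7, 25.4, 24.4, 21.1 and 21.1 CPM in WT and 15.1, 16.1, 21.2, 18.4 and 17.4 CPM in Abcb10-null libraries. Abcb10-null replicate 3 lay within the WT range, and the log2 fold change of -0.40 (edgeR adjusted p = 0.0465) passed the test in 1 of 10 fits with a single library removed. At day 5 WT libraries held 42.4, 33.1, 41.2, 42.7 and 35.5 CPM and Abcb10-null libraries 9.28, 11.9, 12.8, 8.10 and 4.86 CPM. The lowest WT library stood above the highest Abcb10-null library, and the log2 fold change was -2.05 (95% interval -2.52 to -1.58, edgeR adjusted p = 2.5e-05). The lowest count behind an *Nqo1* value was 63.

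The same libraries answer how each gene changed from day 0. In WT, 5 of the 10 genes were called at day 2, *Gclm* and *Prdx2* higher and *Gpx1*, *Gsr* and *Srxn1* lower, where 62.2% of 12839 genes were called, 31.5% higher and 30.7% lower. At day 5, 8 were called, *Gclm*, *Gpx1*, *Gpx4*, *Nqo1*, *Prdx2* and *Srxn1* higher and *Gsr* and *Txnrd1* lower, where 71.2% of 12723 genes were called, 36.5% higher and 34.7% lower. The Abcb10-null clone had 5 called at day 2, *Gss* and *Prdx2* higher and *Gsr*, *Nqo1* and *Srxn1* lower, where 43.1% of 12940 genes were called, 23.1% higher and 20.1% lower. At day 5, 9 were called, *Gclc*, *Gclm*, *Gpx1*, *Gpx4* and *Prdx2* higher and *Gsr*, *Nqo1*, *Srxn1* and *Txnrd1* lower, where 67.2% of 12915 genes were called, 33.9% higher and 33.3% lower. With shares of all genes this high, the counts themselves set these genes little apart, and the directions and sizes carry the description. Without WT day 2 replicates 1 and 2 the WT day 2 count was 8, with *Gss* (0.30), *Gpx4* (0.31) and *Txnrd1* (-0.44) added. Over all genes that fit called 7641 of 13212, against 7985 of 12839.

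Both peroxidases rose by like amounts in both genotypes by day 5, *Gpx1* by a log2 fold change of 0.89 in WT and 0.80 in Abcb10-null cells and *Gpx4* by 0.78 and 0.64. In WT *Gpx1* first dropped by 0.53 at day 2 (edgeR adjusted p = 0.000255), while in Abcb10-null cells the value was -0.02 (95% interval -0.40 to 0.36, edgeR adjusted p = 0.94). Tested directly, the difference between these 2 changes of *Gpx1* was 0.49 (95% interval 0.06 to 0.92, edgeR adjusted p = 0.0896) and was not called. *Prdx2* rose by 1.68 in WT (3.20-fold, edgeR adjusted p = 1.36e-08) and by 0.72 in Abcb10-null cells (1.65-fold, edgeR adjusted p = 3.69e-06). *Gclm* rose by 0.94 and 0.60 and *Txnrd1* fell, with values of -0.72 and -0.39. *Srxn1* fell at day 2 in both, by 0.33 in WT (edgeR adjusted p = 0.00743) and to 0.448 of its day 0 level in Abcb10-null cells (edgeR adjusted p = 5.33e-05). By day 5 *Srxn1* in WT was above its day 0 level (0.54, edgeR adjusted p = 0.00018) and in Abcb10-null cells below it (-0.76, edgeR adjusted p = 4.82e-05). *Nqo1* rose by 0.84 in WT at day 5 (edgeR adjusted p = 9.94e-06), and in Abcb10-null cells its change was -0.60 at day 2 (edgeR adjusted p = 0.00131) and -1.51 at day 5 (edgeR adjusted p = 3.37e-06).

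**Figure D4:**
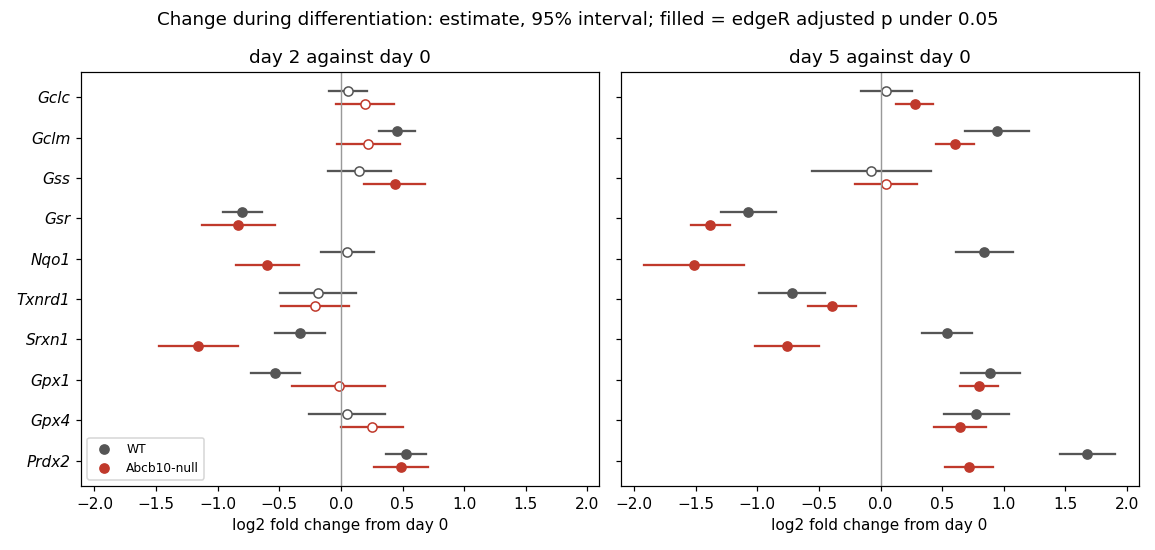
Log2 fold change from day 0 (x axis) for each gene (y axis) at day 2 and day 5, WT in grey and Abcb10-null in red, with its 95% interval, filled where the edgeR adjusted p was under 0.05. At day 5 *Nqo1* stands at 0.84 in WT and -1.51 in Abcb10-null cells, and *Srxn1* at 0.54 and -0.76.

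Whether the change from day 0 differed between genotypes was tested as an interaction term. The comparisons share the day 0 libraries. To day 2, 2 of the 10 genes were called, both lower in Abcb10-null cells, *Nqo1* (-0.67, 95% interval -0.98 to -0.36, edgeR adjusted p = 0.00369) and *Srxn1* (-0.85, 95% interval -1.22 to -0.48, edgeR adjusted p = 0.00257), where 22.8% of 13980 genes were called, and 10.8% were called lower. To day 5, 3 were called, again all lower, *Nqo1* (-2.35, 95% interval -2.82 to -1.87, edgeR adjusted p = 9.66e-08), *Srxn1* (-1.29, 95% interval -1.63 to -0.95, edgeR adjusted p = 3.03e-06) and *Prdx2* (-0.95, 95% interval -1.23 to -0.67, edgeR adjusted p = 1.38e-05), where 31.5% of 14020 genes were called, and 14.7% were called lower. The calls of *Nqo1* and *Srxn1* to both days, and that of *Prdx2* to day 5, held in every setting and each fit without 1 library. The other 7 had interaction values to day 5 between -0.34 (*Gclm*) and 0.33 (*Txnrd1*), and without WT day 5 replicate 5, whose erythroid markers were the lowest of its group, *Gclc* (0.32), *Gss* (0.45), *Gclm* (-0.43) and *Gsr* (-0.37) were called as well. Over all genes that fit called 5228 of 14510, against 4417 of 14020. With no library removed, *Gclm* and *Gsr* were called to day 5 with DESeq2 (DESeq2 adjusted p = 0.0415 and 0.025). Both were also called with at least 10 counts in every library (edgeR adjusted p = 0.0388 and 0.0277), and *Gsr* with DESeq2 size factors in edgeR (edgeR adjusted p = 0.0483). The summed erythroid markers were also lower in all Abcb10-null than in all WT libraries at day 2 and at day 5, and their part in the differences of *Nqo1*, *Srxn1* and *Prdx2* was not tested.

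Around these 10 genes, 138 other genes of the same pathways were read from 9 lists. The lists were drawn up with earlier results of these data known, so their shares of called genes are a description only. At day 5, 107 of them were tested and 58 passed the test, 36 up and 22 down relative to WT (54.2%, against 37.6% of all genes), with a median log2 fold change of 0.11 against -0.02 over all genes. At day 0, 55 of 110 were called (50.0%, against 36.0% of all genes), 28 up and 27 down. At day 2, 26 of 108 were called (24.1%, against 31.8% of all genes), 20 up and 6 down. Without WT day 2 replicates 1 and 2 the day 2 count was 5 and without Abcb10-null replicates 2 and 5 it was 40, with 1 library removed it ran from 15 (without Abcb10-null replicate 4) to 35, and in the single fit of all 30 libraries the day 0 count was 20.

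The counts by list that follow stand against 19.8% of all genes called higher and 17.8% called lower at day 5. In the supply and turnover of glutathione, 9 of 19 tested genes were higher at day 5 and 3 lower (median log2 fold change 0.39). The 3 with the largest changes were *Chac1*, which breaks down glutathione, *Slc7a11*, the cystine importer, and *Cth*, which makes cysteine from cystathionine. *Slc7a11* ran from 14.6 to 80.5 CPM in WT libraries and from 230 to 394 CPM in Abcb10-null libraries at day 5 (log2 fold change 3.31, edgeR adjusted p = 8.88e-05). *Chac1* ran from 0.940 to 18.2 and from 78.1 to 137 CPM (4.27, edgeR adjusted p = 0.000365), and *Cth* from 11.005 to 40.2 and from 79.4 to 155 CPM (2.65, edgeR adjusted p = 0.000111). For all 3 the highest WT value was that of WT day 5 replicate 5. The other WT libraries reached at most 25.7 CPM for *Slc7a11*, 2.55 CPM for *Chac1* and 12.7 CPM for *Cth*. No other glutathione peroxidase of the 6 listed passed the filter on low counts in any comparison. Of 16 glutathione transferases tested, 3 were higher and 5 lower (median 0.01), led by *Gstt1*, at 195 ± 69.2 CPM in WT against 44.8 ± 7.75 CPM in the Abcb10-null clone (-2.13, edgeR adjusted p = 6.8e-05), *Gsto1* at 28.4 ± 12.5 and 119.8 ± 21.1 CPM (2.07, edgeR adjusted p = 4.46e-05), and *Mgst3* (-1.18, edgeR adjusted p = 0.00495).

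Of the thioredoxin and peroxiredoxin genes, 10 of 19 were higher and 3 lower at day 5 (median 0.47), where 19.8% and 17.8% of all genes were. *Txnip*, the thioredoxin inhibitor, ran from 814 to 3016 CPM in WT libraries and from 3275 to 9939 CPM in Abcb10-null libraries (1.49, edgeR adjusted p = 0.0066). The 814 CPM came from WT replicate 5, and the other WT libraries had at least 2713 CPM. The sestrins *Sesn2* and *Sesn3* changed in opposite directions (1.77, edgeR adjusted p = 0.00235, and -1.52, edgeR adjusted p = 0.00231). For *Sesn3*, WT replicate 2 had 337 CPM against 87.4 to 168 CPM in the other WT libraries, and the refits ran from -1.70 to -1.07. Of 4 genes for superoxide and hydrogen peroxide removal, catalase (*Cat*) was the one called, at 205 ± 4.25 CPM in WT against 118 ± 20.3 CPM in the Abcb10-null clone (-0.80, edgeR adjusted p = 0.000219). Of 14 selenoproteins tested other than those described, 5 were higher and 1 lower (median 0.20), with *Selenoh* at 1.37 (edgeR adjusted p = 0.000516), *Txnrd3* at 0.88 (edgeR adjusted p = 0.000991) and *Selenom* at 0.65 (edgeR adjusted p = 0.00222).

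The regulators of NRF2 and its partners gave 2 higher and 3 lower of 13 tested at day 5 (median -0.22), beside 19.8% and 17.8% of all genes. The gene of NRF2 itself, *Nfe2l2*, outside the naming rule and chosen after its value was seen, was among the lower (-0.71, edgeR adjusted p = 0.000807). *Nfe2*, the erythroid relative of NRF2, was at 145 ± 19.6 CPM in WT against 72.7 ± 8.05 CPM in the Abcb10-null clone (-1.01, edgeR adjusted p = 6.49e-05), and *Nfe2l1*, another relative, at 44.8 ± 17.9 and 93.2 ± 11.3 CPM (1.05, edgeR adjusted p = 0.00136). *Sqstm1*, which encodes p62 and binds the NRF2 inhibitor KEAP1, was at 0.94 (edgeR adjusted p = 0.0004). Other listed NRF2 targets gave 5 higher and 6 lower of 21 (median -0.22). Heme oxygenase 1 (*Hmox1*), at 9.39 ± 5.24 CPM in WT against 65.2 ± 15.4 CPM in the Abcb10-null clone (2.79, edgeR adjusted p = 2.46e-05), and *Slc7a11* were higher, in the opposite direction to *Nqo1* and *Srxn1*, and *Ephx1* was lower (-1.24, edgeR adjusted p = 0.018). In NADPH supply 7 were higher and 3 lower of 16 (median 0.06), with *Aldh1l2* at 4.33 ± 5.13 and 48.3 ± 10.9 CPM (3.45, edgeR adjusted p = 0.000274), *Idh2* at 0.92 (edgeR adjusted p = 0.002) and *Taldo1* at -0.76 (edgeR adjusted p = 0.00027). Apart from *Nfe2l2*, for which this was not checked, all of these named genes kept their calls at day 5 in each setting that gave a value and each fit without 1 library. *Aldh1l2* had no value with DESeq2 and *Ephx1* none with at least 10 counts in every library. WT day 5 replicate 5 also stood apart for *Gstt1*, at 80.1 CPM against at least 181 CPM in the other WT libraries. It had 18.4 CPM of *Hmox1*, 76.4 CPM of *Nfe2l1* and 13.5 CPM of *Aldh1l2*, where the others reached at most 9.55, 39.5 and 2.81 CPM.

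**Figure D5:**
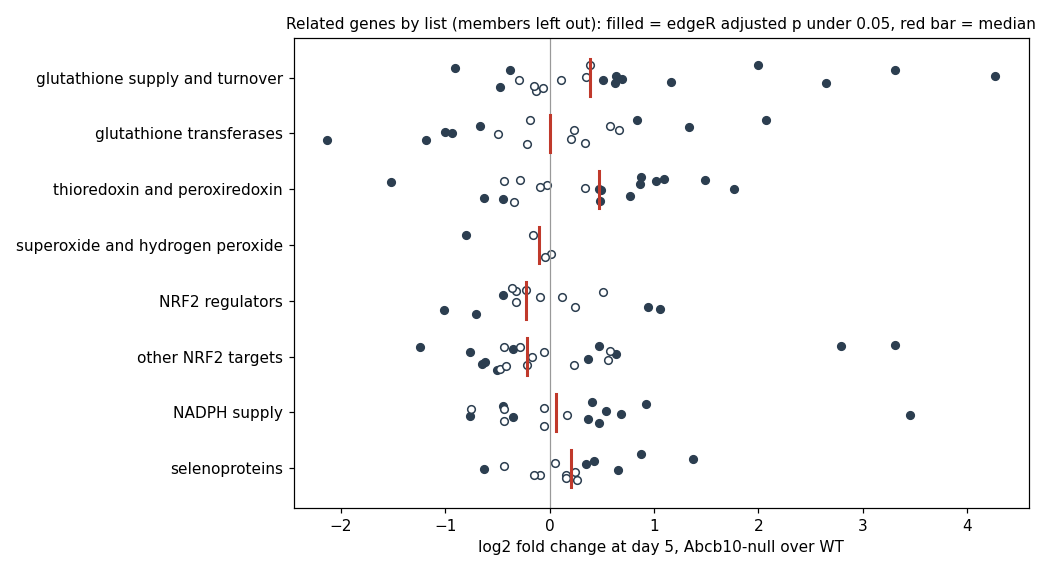
Log2 fold change of Abcb10-null over WT at day 5 (x axis) for the tested genes of each list (y axis) other than the 10 described, filled where the edgeR adjusted p was under 0.05, with a red bar at each list's median. The medians lie between -0.22 and 0.47, and single genes reach -2.13 (Gstt1) and 4.27 (Chac1). The list of glutathione peroxidases had no tested gene and is not drawn.

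For each of the 10 genes the tested gene with the most similar pattern of log2 CPM over the 30 libraries was found, as a description, since libraries of 6 groups share genotype and day. *Prdx2* followed its near copy *Tdpx-ps1* (Pearson r = 0.972) and next the heme synthesis enzyme gene *Urod* (r = 0.969). *Gsr* followed *Pgd*, an NADPH-producing enzyme of the pentose phosphate pathway (r = 0.961), and *Gpx4* followed *Ndufa1*, a subunit of respiratory complex I (r = 0.954). *Gpx1* was most like *Plek* (r = 0.950), *Gclm* like *Pdlim5* (r = 0.943), *Gclc* like *Rbbp5* (r = 0.935), *Srxn1* like *Fbxo9* (r = 0.915), *Nqo1* like *Sh3kbp1* (r = 0.912), *Txnrd1* like *Ipo4* (r = 0.855) and *Gss* like *D10Jhu81e* (r = 0.701). After *Rbbp5*, the pattern of *Gclc* was most like that of *Slc7a11* (r = 0.894), while *Gclc* and *Gclm* themselves had r = 0.04. Among pairs of the 10, *Gclm* and *Prdx2* were most alike (r = 0.839) and *Txnrd1* and *Gpx4* most opposed (r = -0.83).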

How the data were processed

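Ribosomal and globin RNA was depleted before stranded library preparation. Trimmed reads were aligned by the authors to GRCm38 (STAR 2.6.1b) and counted over genes of Ensembl 94 (featureCounts 1.6.3). The deposited values are raw counts per gene, and the strand setting of the counting was not given in the sources used here. Groups and replicate numbers came from the labels, which call the libraries of a group biological replicates. The 10 genes and the lists of related genes were chosen with earlier results of these data known. Related genes were named by a rule, up to 3 a list with the largest change at day 5 among those with an adjusted p under 0.05 and at least 1 CPM, and for each of the 10 genes the most correlated gene, on log2(CPM + 0.5). The second-ranked genes *Urod* and *Slc7a11* were named after their values were seen.

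Genes were tested with edgeR 4.0.16 in R 4.3.3 (TMM, filterByExpr, glmQLFit, glmQLFTest), and p-values were adjusted by Benjamini-Hochberg across every tested gene, with 0.05 as threshold. Each comparison used the libraries of its own groups, 10 for 2 groups and 20 for the interaction of genotype and day. The ratio of *Gclc* to *Gclm* counts was compared with an exact permutation test over the 252 splits. The alternatives were DESeq2 1.42.0, DESeq2 size factors in edgeR, all genes with at least 1 count, a filter of 10 or more counts per library, 1 fit of all 30 libraries, a replicate block, and each library left out in turn. Leaving out pairs of day 2 libraries was added after seeing the data. Gene positions and exon lengths are from GENCODE M21. The steps were tested on simulated data.

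Libraries with the same number were checked for pairing: over 45 pairs the correlation of deviations from the group means ran from -0.34 to 0.50 (median -0.03), and 8 exceeded 0.1, so they were not treated as paired.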

Additional observations from a re-analysis of the deposited data

Results flagged for a closer look

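In 60 groups of 5 libraries (10 genes, 6 groups), 1 library lay far from the other 4 in 3 cases by Dixon's test, and chance gives such a library in about 1 of 20 groups. *Gclc* was low in WT day 2 replicate 5 (108 CPM) and high in WT day 5 replicate 5 (152 CPM), and *Gss* was high in the same day 5 library (43.1 CPM).

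The change from day 0 differed between the genotypes by the interaction test in 5 cases, on the log2 scale: *Nqo1* by -0.67 to day 2 and -2.35 to day 5, *Srxn1* by -0.85 to day 2 and -1.29 to day 5, and *Prdx2* by -0.95 to day 5. In Abcb10-null cells *Nqo1* and *Srxn1* fell by day 5 while they rose in WT, and *Prdx2* rose in both.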

How the results depend on the processing

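Over 90 fold changes of the 10 genes and 1700 refits, 1601 kept their direction and their side of the threshold, 31 lost a call, 39 gained one and 29 changed sign, all of the last among values that were not called. The cause of the changes was not tested, beyond fewer libraries in the fits that left some out. Counts of called genes among the 10 that moved were, for Abcb10-null against WT, 0 in place of 4 at day 0 with all 30 libraries in one fit, 1 in place of 2 at day 2 with the replicate block, and 0 at day 2 without WT replicates 1 and 2. WT day 2 against day 0 gave 8 in place of 5 without those 2 libraries. The interaction to day 5 gave 5 in place of 3 with DESeq2 and with at least 10 counts in every library. Leaving out 1 library gave 1 to 2 at day 2, 3 to 7 at day 5 and 3 to 7 for the interaction to day 5, the 7 being without WT day 5 replicate 5. Over all genes, calls at day 0 were 1584 in the fit of all 30 libraries against 4642. At day 2 they were 738 without WT replicates 1 and 2 and 6397 without Abcb10-null replicates 2 and 5, against 4151, and single removals gave as few as 2665 (Abcb10-null replicate 1) and 2744 (WT replicate 2). The interaction to day 2 gave 1791 and 5779 without these pairs against 3188. Without WT day 5 replicate 5, calls over all genes were 5594 at day 5 against 4769, and 5228 for the interaction to day 5 against 4417. That interaction gave 4623 with DESeq2 and 4319 with at least 10 counts in every library. WT day 2 against day 0 gave 7641 without WT day 2 replicates 1 and 2 against 7985.

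With the replicate block the *Gclc* to *Gclm* differences of 0.46 at day 2 and 0.65 at day 5 had an exact p of 0.0625, the smallest that 5 pairs allow. At day 5 they ran from 0.54 to 0.83 over fits without 1 library. In 4 of 10 such fits, each leaving out WT replicate 2, WT replicate 4, Abcb10-null replicate 3 or Abcb10-null replicate 5, the call was lost (exact p = 0.0556). All these refits were judged by the exact p without adjustment.

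Signs turned as follows. Against WT at day 2, *Gsr* was 0.0016 with all 30 libraries in one fit and ran from -0.16 to 0.055 (without Abcb10-null replicate 5) over fits without 1 library, and *Gpx4* was 0.014 with all 30 libraries and ran from -0.12 to 0.053, above 0 in 5 of 10. At day 5 *Gss* ran from -0.36 to 0.079 (without WT replicate 5) and *Gpx1* from -0.12 to 0.00079 (without WT replicate 3). From day 0 in WT, *Gpx4* at day 2 ran from -0.0087 to 0.18, below 0 without WT day 2 replicate 4 (-0.0046) or 5, and at day 5 *Gclc* ran from -0.048 (without WT replicate 5) to 0.084 and *Gss* from -0.40 to 0.051 (without WT replicate 2). In Abcb10-null cells *Gpx1* at day 2 was 0.22 without replicates 2 and 5 and ran from -0.14 to 0.14, above 0 in 3 of 10 fits without 1 library, and *Gss* at day 5 was -0.054 with all genes and ran from -0.023 to 0.11. In the interaction to day 2, *Gsr* ran from -0.18 to 0.035 (without Abcb10-null replicate 5), *Txnrd1* was 0.21 and 0.057 without the pairs and ran from -0.20 to 0.047, *Gpx4* -0.071 without WT replicates 1 and 2, and *Prdx2* 0.017 without Abcb10-null replicates 2 and 5. The list gene *Sqstm1* at day 2 ran from -0.031 (without Abcb10-null replicate 4) to 0.18.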
